A study of Mus musculus with 20 samples.

Results

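The genes described here are 39 interferon-stimulated antiviral genes, measured as RNA in 20 samples of the mouse T cell hybridoma line E2-10HA. They were chosen by name from a fixed list, and all 39 were found among the 24391 genes of the deposited count tables. By role they comprise 7 sensors of viral or misplaced nucleic acid and their regulators, 5 members of the OAS family, 11 antiviral effectors, 5 genes of the ISG15 system and TRIM ligases, 4 genes of the PARP and DTX3L group, and 7 other genes known to be induced by interferon. The measured values were not used to choose the members, but the list was drawn up with earlier results of these data known.

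Interferons are secreted proteins that warn cells of infection. Type I interferons act through the receptor chains IFNAR1 and IFNAR2 and a transcription factor complex that includes STAT2 and IRF9, which binds the interferon-stimulated response element in promoters. Interferon gamma, a product of T and NK cells, acts through IFNGR1 and IFNGR2 and induces IRF1 among others. The induced genes detect viral RNA, degrade it, block its translation or modify proteins, and some of them, such as Usp18, dampen the signal itself.

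The study compared gene expression after overexpression of NICD, the intracellular signalling domain of Notch, and after disruption of the genes for the histone variant H2A.Z. All samples derived from the hybridoma line, a fused and immortal T cell, and no group was left without a vector. CRISPR control samples carried empty lentiCRISPRv2 (n = 6), and H2A.Z guide samples carried lentiCRISPRv2-sgH2afv/H2afz with guides against both H2A.Z genes (n = 6). Both were selected with puromycin, and all 6 guide samples carried the line number 12 in their titles, so they stand for 1 line. BioNICD samples carried pLXSP-BirA, which encodes a bacterial biotin ligase, and a biotin-tagged NICD, either wild type in pMY-BioNICD-IRES-GFP (n = 2) or the form labelled DEP mutant in pMY-BioNICD-DEP-IRES-GFP (n = 2). They were selected with histidinol and by sorting, and the labels do not say what DEP stands for. NICD-ER samples carried pMIGRI Flag-NICD-ER IRES GFP, a fusion of NICD with the hormone-binding part of the estrogen receptor, and were selected by sorting. They received ethanol (EtOH, n = 2) or its ligand (Z)-4-hydroxytamoxifen (4-OHT, n = 2) for 24 hours. Groups were taken from the titles, and in 6 of the 8 CRISPR samples numbered 3 to 6 the description names another group. A treatment field stands in the labels of CRISPR replicates 1 and 2 and is missing for replicates 3 to 6; from this the CRISPR samples were split into a set 1 and a set 2. The labels do not state that replicates were separate cultures, so each p-value reflects only how much these samples vary, which may be technical.

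Total counts ran from 10704131 to 48238324 per sample. H2afz stood at 4.55 to 5.70 CPM (read counts scaled by library size and between samples) with the guides and 24.7 to 31.0 CPM in the controls, and H2afv at 27.3 to 56.6 against 116.2 to 149.0 CPM, so both targeted genes were lower in every guide sample. Notch1, the gene of which NICD is a part, stood at 90.3 to 657.5 CPM in the NICD samples and at 0.913 to 3.37 CPM in the CRISPR samples. The summed level of 9 T cell markers was 1069.9 to 2195.4 CPM over all samples. Cd3e, a chain of the T cell receptor complex, was present in every sample at 73.8 to 144.3 CPM, while Cd8a stood at 0 in 5 of the 6 groups. Control replicate 1 and guide replicate 1 held 30.0 and 34.7 CPM (without scaling between samples) of 4 fibroblast genes, against at most 0.28 CPM elsewhere.

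Promoter sequences, 250 bases before to 50 bases after the annotated start, were at hand from RefSeq (build GRCm38.p6) for 28 of the 39 members. Both strands were searched for GAAANNGAA (N is any base), the core of the interferon-stimulated response element. It was present in 16 of the 28 (57.1%, 95% exact binomial interval 37.2% to 75.5%), against 2638 of 27025 genes with a promoter in the table (9.76%) and 2812 of all 32851 promoters (8.56%). With a further A after the core the shares were 46.4% of members and 3.99% of genes, and with ACT after it 25% and 0.303%. The 7 members with the longest form were Ddx58, Ddx60, Oas1a, Ifit1, Ifit3, Bst2 and Cxcl10. A match is a run of letters and not a measured binding site, and its absence says only that these letters are not in the window. The 4 promoters shown belong to the members with the largest change in each direction of the main comparisons for which a sequence was at hand. Capitals mark the core on either strand, and each run reads 5′ to 3′ along its gene.
Ifih1: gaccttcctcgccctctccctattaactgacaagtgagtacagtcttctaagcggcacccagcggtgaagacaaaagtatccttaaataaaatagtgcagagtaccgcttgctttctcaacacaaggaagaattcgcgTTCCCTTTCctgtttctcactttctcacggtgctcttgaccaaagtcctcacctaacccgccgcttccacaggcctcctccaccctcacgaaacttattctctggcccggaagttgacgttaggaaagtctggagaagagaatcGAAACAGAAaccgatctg
Isg15: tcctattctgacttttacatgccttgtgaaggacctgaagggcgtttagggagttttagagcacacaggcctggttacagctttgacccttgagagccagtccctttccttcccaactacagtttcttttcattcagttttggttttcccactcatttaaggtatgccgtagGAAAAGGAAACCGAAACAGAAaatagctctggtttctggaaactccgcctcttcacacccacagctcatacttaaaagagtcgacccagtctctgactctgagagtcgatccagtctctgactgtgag
Trim25: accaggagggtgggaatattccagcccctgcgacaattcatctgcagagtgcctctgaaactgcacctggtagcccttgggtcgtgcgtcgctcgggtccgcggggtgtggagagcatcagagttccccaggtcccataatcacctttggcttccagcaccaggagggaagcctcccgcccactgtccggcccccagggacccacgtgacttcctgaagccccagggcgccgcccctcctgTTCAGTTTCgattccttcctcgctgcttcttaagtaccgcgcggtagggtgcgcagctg
Ifi44: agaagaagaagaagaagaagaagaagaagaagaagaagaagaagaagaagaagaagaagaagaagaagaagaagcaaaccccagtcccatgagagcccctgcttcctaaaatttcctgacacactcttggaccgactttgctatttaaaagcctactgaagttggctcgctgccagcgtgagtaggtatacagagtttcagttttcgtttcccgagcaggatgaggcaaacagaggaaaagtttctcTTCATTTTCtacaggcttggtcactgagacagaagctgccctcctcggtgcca
These windows lie at chr2:62646206-62646505 (minus strand) for Ifih1, chr4:156200769-156201068 (minus strand) for Isg15, chr11:88999153-88999452 (plus strand) for Trim25 and chr3:151749861-151750160 (minus strand) for Ifi44. Isg15 holds 3 cores, from 78 to 58 bases before its start, each overlapping the next, and Ifih1 holds 2, one before and one after its start. Trim25 and Ifi44 hold 1 each, on the strand opposite to the gene.

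Several members are neighbours in the genome, given here in the build of the counts, mm9. Ifit2, Ifit3 and Ifit1 lie near each other on chromosome 19, Oas2, Oas3 and Oas1a as well as Oasl2 and Oasl1 on chromosome 5, and Mx1 and Mx2 on chromosome 16. The members with the largest changes are Ifih1 (chr2:62433850-62484312), Parp14 (chr16:35832964-35871468, 17 exons), Ifi27l2a (chr12:104672083-104681890), Isg15 (chr4:155573533-155574927, 2 exons), Usp18 (chr6:121195924-121220935), Rtp4 (chr16:23610005-23614308) and Ifi44 (chr3:151393887-151412923, 8 exons). Rsad2 and Cmpk2 lie 12762 bases apart on opposite strands of chromosome 12. Parp14, Dtx3l and Parp9 follow each other among the members on chromosome 16, and Dtx3l and Parp9 share 334 exon bases on opposite strands. Ifi27l2a shares 103 exon bases, 11.7% of its exons, with Ifi27 on the other strand. The recorded counting command set no strand option, so reads from such stretches cannot be told apart. Reads of near-identical copies, as in the Oas1 and Ifit families, may be divided or lost, and single values in these families are uncertain.

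The members spanned a wide range of levels before any comparison. In the control 13 of 39 members had a mean under 1 CPM and 16 a mean of 10 CPM or more. Per kilobase of exon, Ly6e, a membrane protein that alters viral entry, was the highest member in each of the 6 groups (370.1 CPM per kb in the control). Bst2, the tether that holds budding virus at the cell surface, followed at 52.5 CPM per kb in the control and Samhd1, which hydrolyses deoxynucleotides, at 28.5 CPM per kb. The lowest members there included Oas1a, Oas2, Ifit3, Oasl2, Rtp4 and Ifi44, which had 0 counts in at least 1 control sample each.

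**Figure D1:**
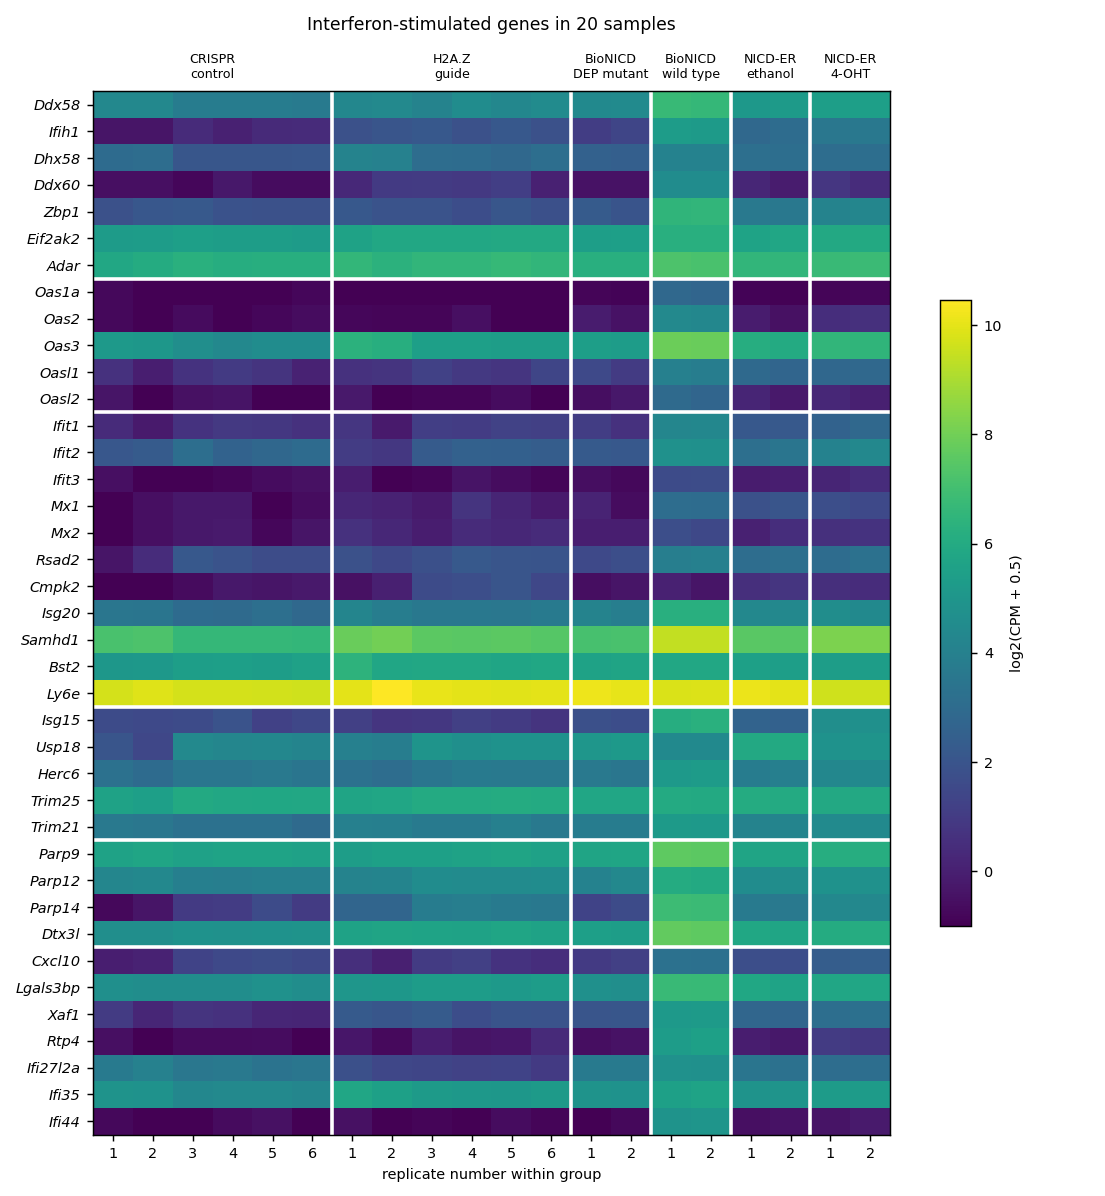
Heat map of the 39 members (rows, ordered by role and separated by white lines) in 20 samples (columns, replicate numbers within 6 groups). Colour gives log2(CPM + 0.5), and the 2 wild-type BioNICD samples are the brightest in most rows, while Ly6e is bright in all 20.

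The mean level was highest in wild-type BioNICD for 34 of the 39 members, and lowest in the CRISPR control for 28. The exceptions at the top were Cmpk2 and Bst2 (H2A.Z guide), Ly6e (DEP mutant), and Usp18 and Trim25 (NICD-ER with ethanol). The median over members of the group means was 5.07 CPM in the control, 3.76 CPM with the guides, 4.07 CPM with the DEP mutant, 9.88 CPM in NICD-ER with ethanol, 18.1 CPM with 4-OHT and 37.0 CPM with wild-type BioNICD. Summed over the members without the abundant Ly6e and Samhd1, levels were 452.2 to 486.7 CPM in the controls and 2065.6 to 2100.9 CPM with wild-type BioNICD. The DEP mutant stood at 570.6 and 573.3, the guides at 629.5 to 681.2, NICD-ER with ethanol at 787.5 and 779.8, and with 4-OHT at 904.9 and 924.3 CPM. These sums did not overlap between any of the 6 groups. They are descriptions of the levels and were not tested as sums.

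Wild-type BioNICD against the DEP mutant was the comparison with the largest differences. Of 39 members, 36 were higher with wild type, 2 were lower (Usp18 and Ly6e), and Cmpk2 did not pass the test (edgeR quasi-likelihood test, Benjamini-Hochberg adjusted p under 0.05). Of all 12499 genes tested, 65.6% passed, 32.0% higher and 33.6% lower. At least 2-fold higher were 31 members, against 11.1% of all genes. Of all genes 3.46% were at least 2-fold lower, and the largest fall of a member was the 1.61-fold one of Usp18. The median log2 fold change was 2.46 over the members and -0.02 over all genes. In 39 of 39 members the 2 samples of one group lay outside the range of the other, as did 80.4% of all genes. Only 30 members reached the count cutoff of the filter in both groups; of these 28 were higher and 2 lower, with a median of 2.22. The other 9 entered the test through wild-type BioNICD or the NICD-ER samples. They were Ddx60, Oas1a, Oas2, Oasl2, Ifit3, Mx1, Cmpk2, Rtp4 and Ifi44. All of them except Cmpk2 count among the 31 members at least 2-fold higher, so that count rests in part on members under the cutoff with the DEP mutant.

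The 7 sensors were all higher with wild-type BioNICD, by 0.76 to 6.59 on the log2 scale. Ddx60, a helicase that assists RIG-I, stood at 23.4 and 23.3 CPM with wild type and 0.236 and 0.235 CPM with the DEP mutant (log2 fold change 6.59, SE 0.222, adjusted p = 1.13e-17, edgeR). Both wild-type samples were thus far above both mutant samples, which held 9 counts together. Zbp1, a sensor of Z-form nucleic acid that can trigger cell death, rose from 4.36 and 3.38 to 91.2 and 92.5 CPM (4.57), and Ifih1, which encodes the long RNA sensor MDA5, from 1.65 and 2.16 to 40.1 and 37.3 CPM (4.31). Ddx58, the gene of RIG-I, and Dhx58, the related helicase LGP2, gave 2.21 and 1.65. The smallest values were those of Adar, which edits adenosine in double-stranded RNA (0.97), and Eif2ak2, the kinase PKR that halts translation (0.76), both well expressed in every group.

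All 5 OAS family genes, whose enzymes make the oligoadenylate that activates RNase L or are related to these enzymes, were higher. Oas1a held 488 counts with wild type and 2 with the DEP mutant, at 6.79 and 6.27 against 0.059 and 0.047 CPM, a ratio of pooled levels of 126.7 (95% counting interval 34.9 to 1049.1). Oas2 stood at 20.4 and 19.5 against 0.413 and 0.235 CPM (log2 fold change 5.96, SE 0.215, adjusted p = 4.31e-17, edgeR). Oas3 was already expressed with the DEP mutant, at 43.0 and 40.1 CPM, and reached 237.1 and 230.5 CPM (2.48). Oasl1 and Oasl2 gave 2.96 and 4.67.

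Of the 11 effectors, 9 were higher and 1 lower. Mx1, a GTPase that traps viral components, stood at 7.96 and 7.70 against 0.59 and 0.141 CPM (4.49), and Mx2 gave 2.46. Ifit1, Ifit2 and Ifit3, whose proteins bind foreign RNA, gave 3.82, 2.72 and 4.27. Rsad2, the radical enzyme viperin, stood at 14.6 and 15.6 against 2.42 and 2.91 CPM (2.46), whereas its neighbour Cmpk2, a nucleotide kinase, stood at 0.523 and 0.293 against 0.177 and 0.282 CPM (0.89, adjusted p = 0.164, edgeR). Samhd1 rose from 138.6 and 141.6 to 669.7 and 672.9 CPM and Isg20, an exonuclease, from 16.9 and 14.6 to 74.9 and 75.3 CPM, both by 2.24. Bst2 gave 0.19 and lost its call when all 20 samples were fitted together. Ly6e was lower with wild type, at 899.0 and 915.0 against 1169.6 and 1034.5 CPM (log2 fold change -0.30, SE 0.0496, adjusted p = 1.36e-05, edgeR), a 1.23-fold difference.

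Isg15 and Usp18, an ubiquitin-like modifier and the protease that removes it, moved in opposite directions. Isg15 stood at 70.5 and 76.1 CPM with wild type and 2.95 and 2.72 CPM with the DEP mutant (4.67, SE 0.0987, adjusted p = 1.19e-21, edgeR). Usp18 stood at 21.5 and 21.2 against 32.1 and 35.7 CPM (log2 fold change -0.69, SE 0.0689, adjusted p = 7.53e-09, edgeR). Herc6, a ligase for ISG15 in mice, and the ligases Trim21 and Trim25 gave 1.70, 1.44 and 0.17.

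The 4 genes of the PARP and DTX3L group, which modify proteins with ADP-ribose or ubiquitin, were all higher. Parp14 stood at 116.6 and 111.5 against 1.95 and 2.54 CPM (log2 fold change 5.63, SE 0.095, adjusted p = 1.53e-23, edgeR), whereas Parp9, Parp12 and Dtx3l gave 1.86, 1.79 and 2.24. Among the remaining 7 members, Ifi44, a cytoplasmic protein of uncertain function, showed the largest fitted change of all. It stood at 28.8 and 30.7 CPM with wild type, and the mutant samples held 0 and 0.0939 CPM, 2 counts in all, a pooled ratio of 562.9 (counting interval 155.6 to 4650.6). Rtp4, a receptor transporter, stood at 40.0 and 45.0 against 0.177 and 0.235 CPM (7.61, SE 0.194, adjusted p = 4.61e-20, edgeR). Xaf1 (3.31), Cxcl10, a chemokine for activated T cells (2.48), Lgals3bp (2.05), Ifi27l2a (1.12) and Ifi35 (0.71) were higher as well.

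**Figure D2:**
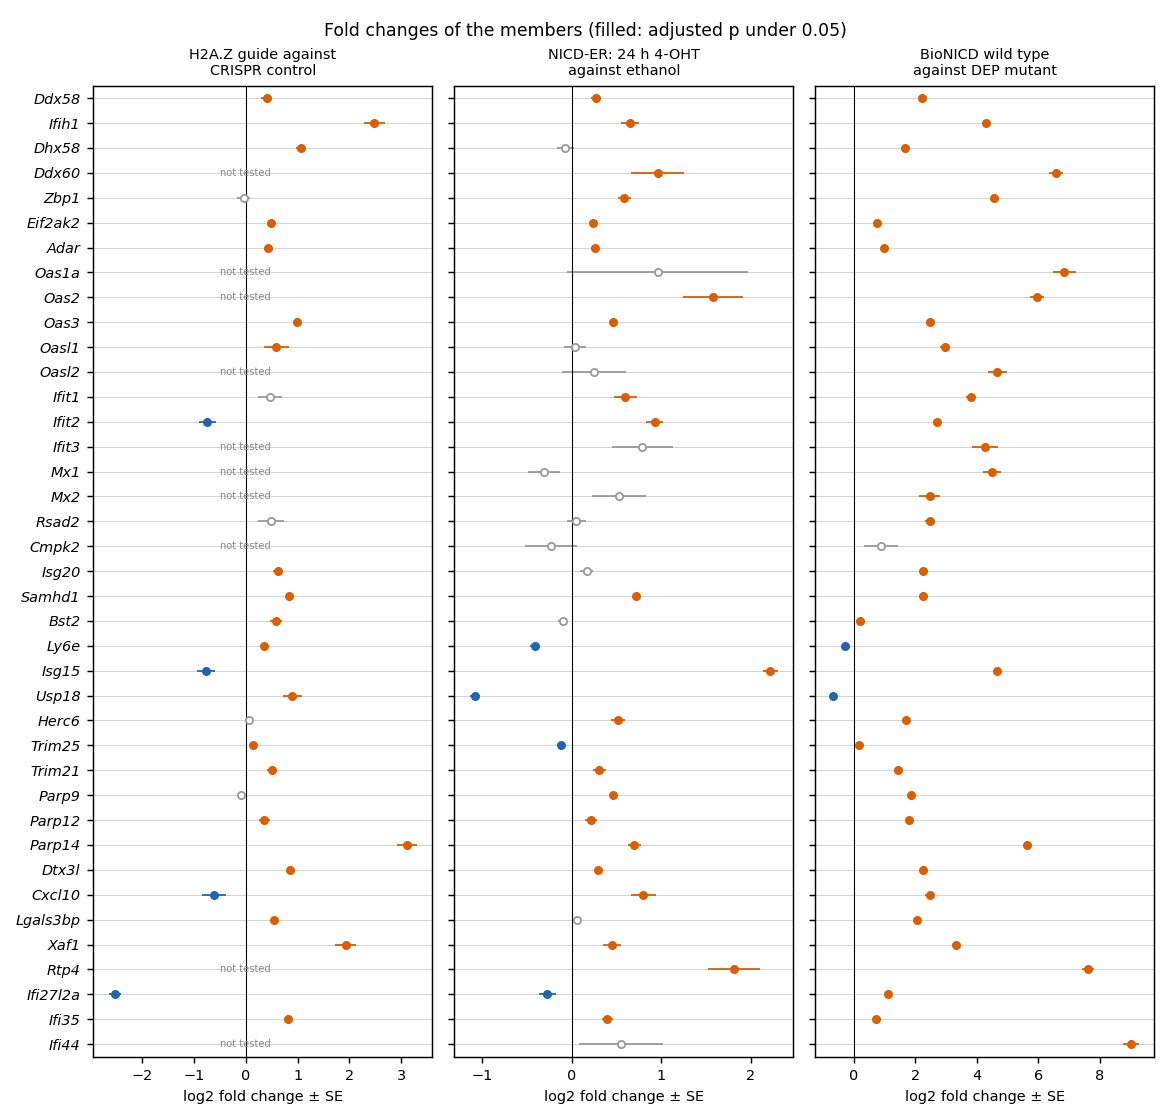
Log2 fold change (x axis, bars ± SE) of each member (y axis) in the 3 main comparisons, filled where the adjusted p was under 0.05 and open where it was not. Wild-type BioNICD exceeded the DEP mutant in 36 members, 4-OHT exceeded ethanol in 22, and with the H2A.Z guides 20 were higher and 4 lower of 29 tested; the panels have different x scales.

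Beside these changes, genes of other cell types also differed in the wild-type BioNICD samples. The summed level of 5 NK cell markers was 96.2 and 99.3 CPM there and at most 2.15 CPM in any other sample. Of this list Nkg7, a granule protein of cytotoxic cells, made up 93.5 and 97.1 CPM, the NK receptor Ncr1 stood at 2.33 and 2.01 CPM, and Klrb1c and Eomes were at 0. The 5 myeloid markers found summed to 61.9 and 63.2 CPM, nearly all from the integrin Itgam, against at most 2.01 CPM elsewhere. T cell markers summed to 1450.2 and 1488.3 CPM with wild type and 1155.9 and 1190.2 CPM with the DEP mutant. Of these, Lck (1.44), Cd2 (1.28), Cd3e (0.48), Cd3g (0.31) and Cd3d (0.17) were higher and Thy1 (-0.53) lower. Cd247 and Cd4 did not pass (edgeR), and Cd8a stood at 0 in both groups. Genes of plasmacytoid dendritic cells summed to 8.52 to 9.45 CPM with wild type and 3.3 to 3.85 CPM with the DEP mutant. Among them Ccr9 was higher (1.55), Tcf4 did not pass and Siglech stood at 0. In bulk RNA, a change in the share of cells expressing a gene and a change in RNA per cell cannot be told apart, and the part of these genes in the result was not tested.

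Treatment of NICD-ER cells with 4-OHT for 24 hours gave smaller and mixed changes. Of 39 members, 22 rose, 4 fell and 13 did not pass the test (edgeR), against 36.2% of all genes called, 19.0% higher and 17.2% lower. The median log2 fold change was 0.40 over the members and 0.00 over all genes. Over the 36 members past the count cutoff in both groups, 21 rose and 4 fell. The 2 samples of one treatment lay outside the range of the other in 34 members, 27 higher and 7 lower, and in 66.1% of all genes. Changes of at least 2-fold were seen in 3 members upward (Isg15, Rtp4 and Oas2) and 1 downward (Usp18), against 2.66% and 0.856% of all genes. Of these, Oas2 was under the count cutoff in at least 1 ethanol sample.

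Isg15 showed the largest rise, from 5.76 and 5.34 CPM with ethanol to 25.1 and 26.4 CPM with 4-OHT (log2 fold change 2.22, SE 0.0846, adjusted p = 5.39e-16, edgeR). Rtp4 stood at 0.453 and 0.341 against 1.52 and 1.30 CPM (1.81, SE 0.29, adjusted p = 2.56e-05, edgeR), and Oas2 at 0.421 and 0.217 against 0.899 and 1.00 CPM (1.58, SE 0.334, adjusted p = 0.000606, edgeR). Samples of the treatments did not overlap in any of these, although Rtp4 and Oas2 stayed at or under 1.52 CPM. Ddx60 stood at 0.680 and 0.403 against 1.24 and 0.880 CPM (0.96). Its call was lost in 3 alternative fits, 2 of which leave out 1 library. Ifit2 rose from 8.71 and 10.4 to 16.5 and 19.8 CPM (0.93) and Cxcl10 from 2.88 and 2.73 to 4.72 and 5.04 CPM (0.80).

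Usp18 fell by 1.08 on the log2 scale (SE 0.0578, adjusted p = 3.56e-13, edgeR), from 60.5 and 62.7 CPM, its highest level in the series, to 28.0 and 30.2 CPM. Ly6e fell by 0.41, from 1116.4 and 1005.5 to 798.9 and 790.1 CPM. Ifi27l2a fell by 0.27, from 10.6 and 9.22 to 8.09 and 8.24 CPM, and Trim25 fell by 0.12, from 66.3 and 63.7 to 59.5 and 59.8 CPM. These last calls did not survive all fits: without ethanol replicate 1, without 4-OHT replicate 1, without 4-OHT replicate 2, with DESeq2 or with all 20 samples in the fit, neither passed. Ifi27l2a reached adjusted p = 0.31 and Trim25 adjusted p = 0.216 (edgeR or DESeq2) at the highest.

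By role, 6 of 7 sensors rose (Dhx58 did not pass), with values from 0.24 for Eif2ak2 to 0.96 for Ddx60. Of the OAS family Oas2 and Oas3 rose (Oas3 0.46), and Oas1a, Oasl1 and Oasl2 did not pass. Of the effectors, Ifit1 (0.60), Ifit2 and Samhd1 (0.72) rose, Ly6e fell and 7 did not pass, among them Mx1 (-0.31) and Rsad2 (0.05). All 4 PARP and DTX3L genes rose, from 0.22 for Parp12 to 0.70 for Parp14. The call of Parp12 was lost without ethanol replicate 1, without 4-OHT replicate 1 and with all 20 samples in the fit (adjusted p up to 0.3, edgeR).

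Marker genes moved with 4-OHT as well. The NK markers summed to 0.615 and 0.838 CPM with ethanol and 1.91 and 2.15 CPM with 4-OHT, mostly Nkg7 (log2 fold change 1.85), with Ncr1, Klrk1 and Eomes at 0. The plasmacytoid dendritic cell genes summed to 5.31 to 5.54 against 2.74 to 3.46 CPM, mostly Ccr9 (-1.10), with Siglech at 0. The myeloid markers summed to 1.37 to 2.01 CPM with ethanol and 1.37 to 1.83 CPM with 4-OHT. Of these, Lyz2 was lower (-1.43) and Itgam (0.51) did not pass. Of the T cell markers, Lck (1.41) and Cd2 (0.25) rose, Thy1 (-0.24) and Cd3g (-0.11) fell, and Cd247, Cd4, Cd3d and Cd3e did not pass (edgeR). Their part in the result was not tested.

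**Figure D3:**
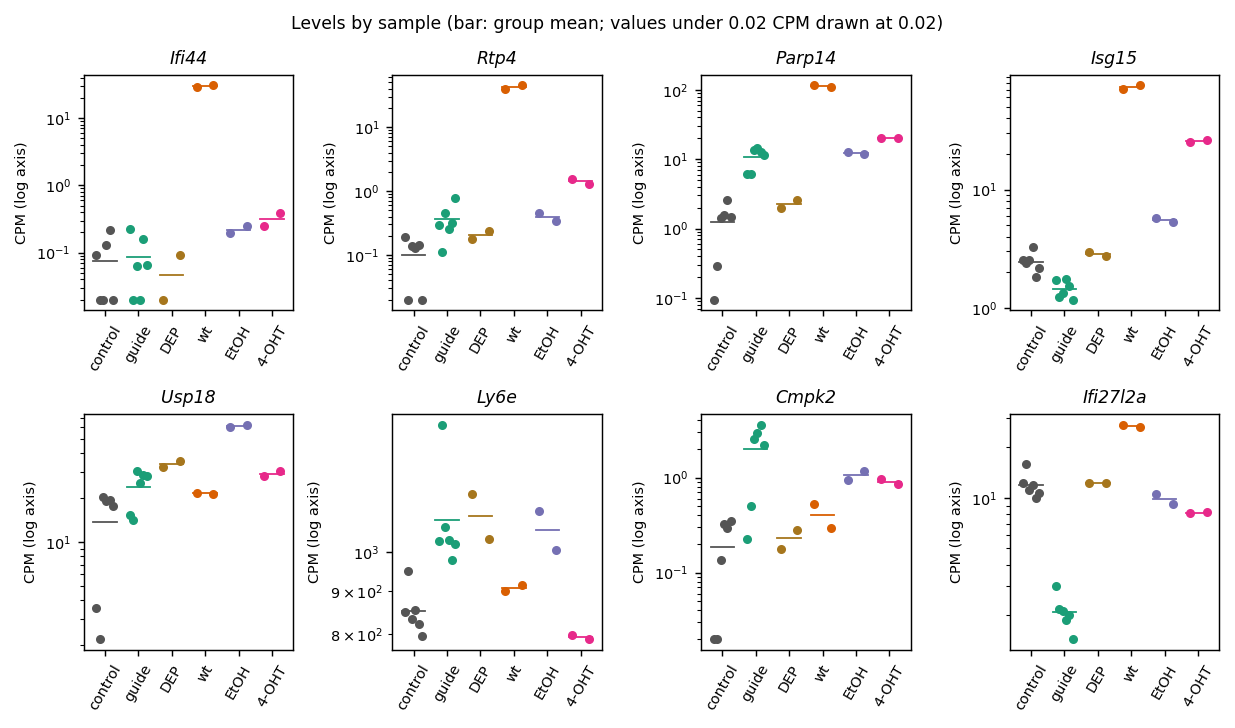
CPM on a log axis (values under 0.02 drawn at 0.02) of 8 members by group, a point per sample and a bar at the group mean; wt is wild-type BioNICD, DEP its mutant, EtOH and 4-OHT the NICD-ER samples. Ifi44, Rtp4, Parp14 and Isg15 peak in wild-type BioNICD, Usp18 in NICD-ER with ethanol, Cmpk2 in the guide samples numbered 3 to 6, and Ifi27l2a is lowest with the guides.

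Set side by side, 22 members were higher in both NICD comparisons and Usp18 and Ly6e lower in both. Ifi27l2a and Trim25 were called in opposite directions, 12 members passed only with BioNICD, and Cmpk2 passed in neither. The difference of the log2 fold changes was tested in the same model. It passed in 37 of 39 members, lower for NICD-ER in all 37, against 51.5% of all genes called, 26.4% higher and 25.1% lower. At least 2-fold lower were 31 members, against 8.26% of all genes. No member was higher for NICD-ER with edgeR, at an unadjusted p under 0.05 or with DESeq2 (0 in each), and the median difference was -1.95. Ifi44 (-8.47), Oas1a (-5.89) and Rtp4 (-5.80) gave the most negative fitted differences; Ifi44 and Oas1a rest on 2 counts each in the DEP mutant, and Oas1a lost its call without either ethanol replicate. Ifi44, Oas1a and Rtp4 were also among the 9 members under the count cutoff in at least 1 DEP mutant sample. The others were Ddx60, Oas2, Oasl2, Ifit3, Mx1 and Cmpk2, and no split by the cutoff was made for this difference. Ly6e (-0.11, adjusted p = 0.181) and Cmpk2 (-1.11, adjusted p = 0.144) did not pass (edgeR). The comparisons differ in construct, selection and reference, NICD-ER with ethanol in one and an NICD mutant in the other, and these cannot be told apart.

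With the H2A.Z guides, 29 of the 39 members reached the count filter; Cmpk2, Ddx60, Ifi44, Ifit3, Mx1, Mx2, Oas1a, Oas2, Oasl2 and Rtp4 did not. Of the 29, 20 were higher than in the control, 4 lower and 5 did not pass (edgeR). Of all 10662 genes tested, 64.5% passed, 31.8% higher and 32.7% lower. The median log2 fold change was 0.49 over these members and -0.01 over all genes. Of the 22 members past the cutoff in both groups, 16 were higher and 3 lower. The 6 guide samples lay wholly above the 6 controls in 13 members and wholly below in 2, against 33.7% of all genes without overlap. At least 2-fold higher were 4 members (Parp14, Ifih1, Xaf1 and Dhx58), against 5.05% of all genes, and at least 2-fold lower was 1 (Ifi27l2a), against 4.21%. Parp14, Ifih1 and Xaf1 were under the count cutoff in at least 1 control sample, so of these 4 only Dhx58 was past it in both groups. Markers also moved with the guides, in both directions. The 9 T cell markers summed to 1394.0 to 2195.4 CPM against 1069.9 to 1378.5 CPM in the control. Of these, Cd247, Cd4, Cd3g and Thy1 were higher (7.55, 4.23, 0.96 and 0.42), Cd2 and Lck lower (-1.52 and -1.51), Cd3d and Cd3e did not pass, and Cd8a stood at 0 (edgeR). Further, 4 genes of plasmacytoid dendritic cells summed to 0.194 to 0.503 against 1.41 to 13.3 CPM, with their defining gene Siglech at 0 in both groups. The part of these genes in the result was not tested.

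Parp14 had a lowest, median and highest level of 6.09, 12.1 and 14.5 CPM with the guides and 0.094, 1.46 and 2.56 CPM in the control (log2 fold change 3.11, SE 0.195, adjusted p = 1.1e-09, edgeR). The groups did not overlap, and the sets alone gave 4.95 and 2.90. Ifih1 stood at 3.06, 3.32 and 4.02 CPM against 0.282, 0.665 and 0.843 CPM (2.48, SE 0.204, adjusted p = 2.64e-08, edgeR; 3.49 in set 1 and 2.24 in set 2). Xaf1, a gene linked to cell death, stood at 2.72, 3.57 and 4.47 CPM against 0.632, 0.857 and 1.5 CPM (1.93, SE 0.203, adjusted p = 4.84e-07, edgeR; 1.85 and 1.97 by set). These groups were again fully apart.

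In the next 3 members the sets differed in level, and the pooled ranges of Dhx58 and Usp18 overlapped. Dhx58 ranged from 6.81 to 16.8 CPM (median 8.20) with the guides and from 3.64 to 7.96 CPM (median 3.77) in the control (1.06, with 1.05 and 1.07 by set). Its mean in set 1 was 16.2 against 7.78 CPM and in set 2 it was 7.75 against 3.71 CPM. Oas3 ranged from 40.8 to 81.1 CPM (median 43.7) against 20.1 to 35.2 CPM (median 24.1), a log2 fold change of 0.98, with 1.17 and 0.89 by set. Usp18 ranged from 14.0 to 30.1 CPM (median 26.6) against 2.18 to 20.3 CPM (median 18.1; 0.90, SE 0.188, adjusted p = 0.000578, edgeR). The control samples of Usp18 themselves stood at 3.57 and 2.18 CPM in set 1 and at 17.4 to 20.3 CPM in set 2. Fitted by set, Usp18 gave 2.33 and 0.56, and without the set term its call was lost, as was that of Ifit2.

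The 4 lower members were Ifi27l2a, Isg15, Ifit2 and Cxcl10. Ifi27l2a stood at 1.44, 2.06 and 2.98 CPM (lowest, median, highest) with the guides and 9.95, 11.5 and 15.9 CPM in the control (log2 fold change -2.53, SE 0.119, adjusted p = 3.16e-11, edgeR). No guide sample reached the lowest control, and the sets gave -2.46 and -2.56. Isg15 stood at 1.17, 1.43 and 1.75 CPM against 1.83, 2.45 and 3.28 CPM (-0.77, SE 0.175, adjusted p = 0.00106, edgeR). The Isg15 groups did not overlap, and the sets gave -0.75 and -0.77, the first without passing alone (adjusted p = 0.153). Ifit2 ranged from 1.34 to 5.44 CPM (median 4.55) against 3.85 to 8.38 CPM (median 6.15), with -0.74 pooled and -1.52 and -0.52 by set. Cxcl10 ranged from 0.503 to 1.75 CPM (median 1.05) against 0.470 to 2.63 CPM (median 2.15; -0.62, SE 0.228, adjusted p = 0.0257, edgeR). It lost its call in 9 of 24 alternative fits, among them those without guide replicate 5 or 6 or control replicate 4, 5 or 6. The levels of Ifit2 and Cxcl10 overlapped between the groups.

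The 14 other called members were all higher, by 0.14 for Trim25 to 0.86 for Dtx3l. Among them were Samhd1 (0.84), Ifi35 (0.82), Isg20 (0.62), Oasl1 (0.59), Bst2 (0.59), Lgals3bp (0.55) and Eif2ak2 (0.49). Oasl1 lost its call in 12 of 24 alternative fits, among them those without control replicate 2, 3, 5 or 6 or guide replicate 2, 3 or 6. The 5 members that did not pass were Rsad2 (0.49), Ifit1 (0.46), Herc6 (0.07), Zbp1 (-0.04) and Parp9 (-0.09). Dtx3l and Parp9, which overlap, thus gave 0.86 and -0.09, and Parp14 on the same stretch gave 3.11. Genes of whole chromosomes also shifted with the guides: the median log2 fold change was -0.33 over 682 genes of chromosome 5, which holds Oas3, Oasl1 and Cxcl10, and 0.51 over 572 genes of chromosome 8, which holds Bst2. Bst2 lay 0.08 above its chromosome's median. The medians of the other chromosomes with members lay between -0.08 and 0.11.

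The guide effect itself differed between the sets in 7 of the 29 members (set 2 minus set 1, edgeR), 3 higher and 4 lower, against 15.7% of all genes, 8.19% higher and 7.49% lower. At least 2-fold were Ifit2 upward, against 0.891% of all genes, and Rsad2, Parp14 and Usp18 downward, against 0.694%. Rsad2 gave -2.06 (SE 0.468, adjusted p = 0.00863): its set 1 controls stood at 0.282 and 0.852 CPM, its set 2 controls at 2.67 to 3.98 CPM, and all guide samples at 2.29 to 4.08 CPM. Parp14 gave -2.06 and Usp18 -1.77 (SE 0.206, adjusted p = 7.42e-05). For all 3 the set 1 controls were the lowest samples of the 12. Ifit2 (1.00), Parp12 (0.76) and Ddx58 (0.63) differed the other way, and Ddx58 and Parp12 gave -0.02 and -0.16 in set 1 against 0.62 and 0.61 in set 2. The count of 7 fell to 2 without control replicate 1, to 4 without control replicate 2 and to 3 without the samples high in ribosomal RNA, and rose to 11 without guide replicate 2. Without the pair of samples holding fibroblast transcripts, Rsad2, Parp14 and Bst2 no longer passed. In the comparison of the guides over all samples, 25 members were called without that pair, with Ifit1 gained, and 22 without the samples high in ribosomal RNA. The samples high in ribosomal RNA were guide replicates 5 and 6 and control replicate 6, all of set 2. The ribosomal RNA gene Rn45s took 7.67%, 6.93% and 6.73% of their counts.

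Cmpk2 did not reach the count filter over all 12 samples but did in set 2 alone. There it stood at 2.55, 2.92, 3.61 and 2.22 CPM with the guides against 0.137, 0.328, 0.293 and 0.351 CPM (log2 fold change 3.29, adjusted p = 4.07e-09, edgeR). Its set 1 samples stood at 0.224 and 0.503 CPM with the guides and held no counts in the controls. The guide samples of set 2 were its highest in the whole series.

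The lines also differed among the samples that had neither the NICD-ER ligand nor wild-type BioNICD. These comparisons share samples with each other, so each is given on its own. The NICD-ER and DEP mutant samples carried a form of NICD. Line, vector, selection and any activity of these NICD forms cannot be told apart. The NICD samples were coded as set 1, so fold changes against the control refer to control levels adjusted to set 1. The DEP mutant exceeded the CRISPR control in 14 members and was lower in 1, Dhx58 (-0.58), with 24 not passing (edgeR), against 41.3% of all genes called, 20.7% higher and 20.6% lower. The median was 0.31 (0.49 without control replicate 1 and 0.57 without both samples holding fibroblast transcripts, where Ly6e lost its call and Ddx58, Oas3, Rsad2, Bst2 and Rtp4 gained one), and 7 members were at least 2-fold higher, against 4.67% of all genes (1.61% were as much lower). Wholly above every control sample were 13 members, and 42.4% of all genes did not overlap. Only 22 members passed the count cutoff in both groups, 7 of them higher and 1 lower, with a median of 0.22. Of the 7 members at least 2-fold higher, only Usp18 was past the cutoff in both groups. Cmpk2, Ifih1, Xaf1, Parp14, Oasl1 and Ifit1 were under it in at least 1 control sample. Of the called members, Cmpk2 (2.78), Usp18 (2.44), Ifih1 (1.81) and Xaf1 (1.81) differed most, and Oas2 (2.26) did not pass. The DEP mutant held 0.177 and 0.282 CPM of Cmpk2, within the range of set 2 controls, and the set 1 controls held none. Its call was lost without DEP mutant replicate 2. Usp18 stood at 32.1 and 35.7 CPM, above every control, and Ifih1 at 1.65 and 2.16 CPM, above every control. The control mean of Usp18 was 2.88 CPM in set 1 and 18.9 CPM in set 2.

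NICD-ER cells with ethanol exceeded the control in 29 members and were lower in 1, Ifi27l2a (-0.53), against 56.2% of all genes called, 29.4% higher and 26.9% lower (edgeR). The median was 1.18, and 20 members were at least 2-fold higher, against 8.81% of all genes (2.62% were as much lower). Wholly above every control sample were 33 members, and 53.0% of all genes did not overlap. Over the 22 members past the cutoff in both groups, 16 were higher and 1 lower, with a median of 0.61. Of the 20 at least 2-fold higher, only Usp18, Zbp1, Ifit2, Lgals3bp, Isg15, Ddx58 and Dtx3l were past it in both groups. The rest of the 20 were under it in at least 1 control sample. Cmpk2 (4.92), Mx1 (4.35) and Parp14 (4.20) differed most. Each of them was under the count cutoff in at least 1 control sample, and their control means differed by set. In sets 1 and 2 these means were 0 and 0.277 CPM for Cmpk2, 0.0947 and 0.203 CPM for Mx1, and 0.189 and 1.76 CPM for Parp14. Mx1 stood at 3.04 and 3.54 CPM against at most 0.343 CPM in any control, and Parp14 at 12.9 and 11.8 CPM against at most 2.56 CPM. Cmpk2 stood at 0.939 and 1.18 CPM against 0 to 0.351 CPM. Ifi27l2a, at 10.6 and 9.22 CPM, overlapped the controls of set 2 and lay below the 12.2 and 15.9 CPM of set 1.

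Between the NICD lines, NICD-ER with ethanol exceeded the DEP mutant in 26 members and was lower in 1, Ifi27l2a (-0.33), against 42.2% of all genes called, 22.5% higher and 19.7% lower (edgeR). The median was 0.71, and 10 members were at least 2-fold higher, against 4.29% of all genes (1.94% were as much lower). Over the 29 members past the count cutoff in both groups, 24 were higher and 1 lower, with a median of 0.68. The other 10, among them Mx1 and Cmpk2, were under it in at least 1 sample of their lower group. The samples did not overlap in 36 members and in 76.6% of all genes. The call of Ifi27l2a was lost without either DEP mutant replicate or without ethanol replicate 2. Mx1 (3.23), Parp14 (2.43) and Cmpk2 (2.13) differed most, and Zbp1 stood at 11.9 and 11.7 against 4.36 and 3.38 CPM (1.61). The members that did not pass were Oas1a, Oas2, Oasl2, Ifit3, Mx2, Ddx60, Rtp4 and Ifi44, all under 1 CPM in both groups, and Ly6e, Bst2, Parp9 and Ifi35.

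**Figure D4:**
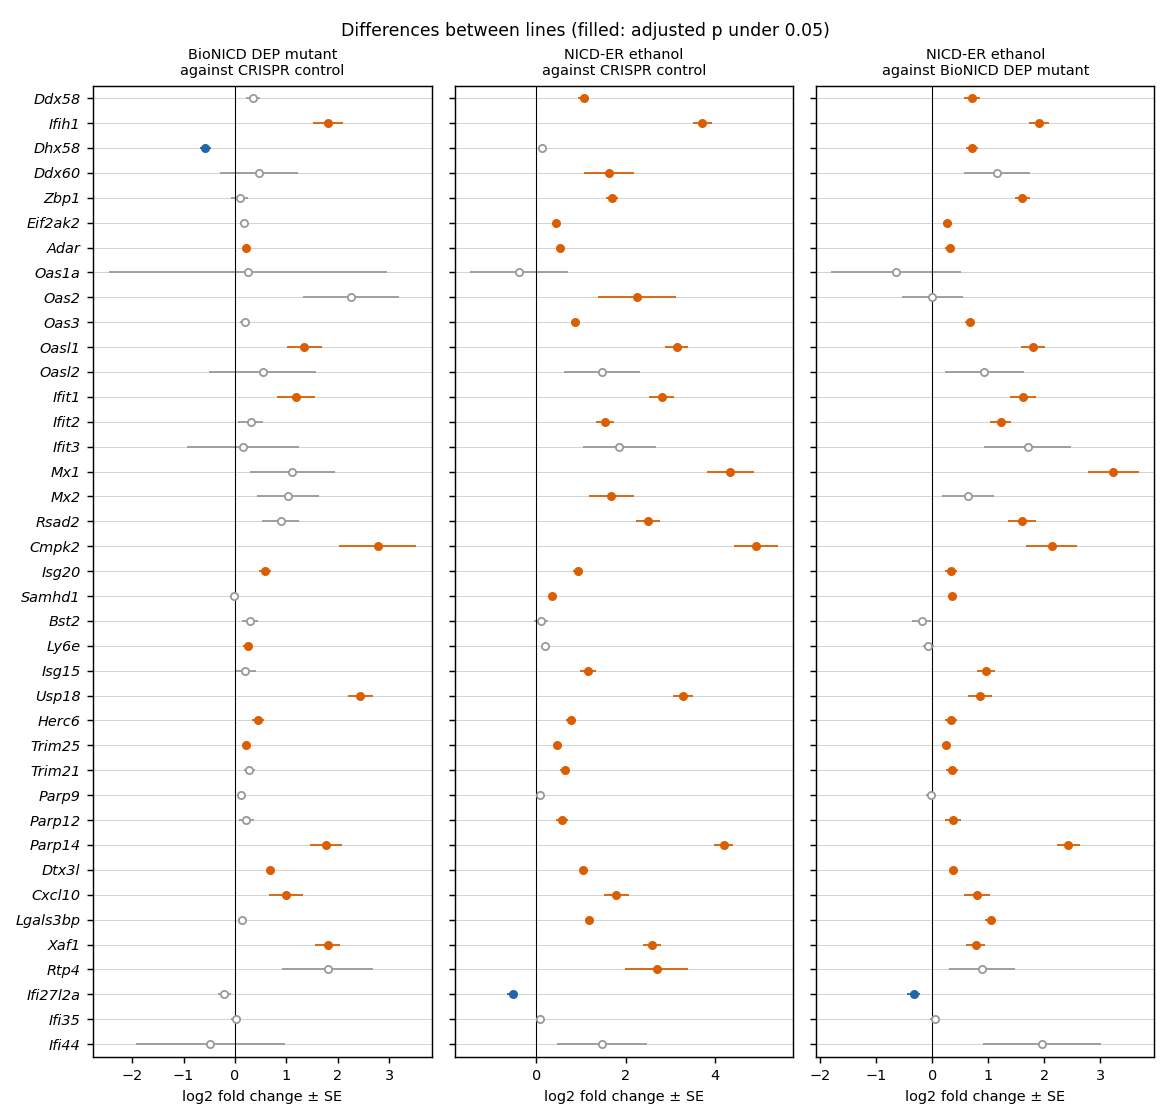
Log2 fold change (x axis, bars ± SE) of each member (y axis) between lines, filled where the adjusted p was under 0.05. NICD-ER cells with ethanol exceed the CRISPR control in 29 members and the DEP mutant in 26, while the DEP mutant exceeds the control in 14; very long bars belong to members with few counts.

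The wider interferon pathway was followed with a list of 47 genes. In wild-type BioNICD against the DEP mutant, 27 of 37 tested were higher and 7 lower (edgeR), against 32.0% and 33.6% of all genes, with a median log2 fold change of 0.44. The ligand Ifng stood at 52.0 and 57.8 CPM with wild type and at 0 and 0.188 CPM with the DEP mutant (8.96, SE 0.223, adjusted p = 3.02e-20, edgeR), and it had no counts in any of the 12 CRISPR samples. Ifnb1 held 20 counts with wild type and 2 with the DEP mutant, a ratio of 5.19 (counting interval 1.26 to 45.8), with 0.362 and 0.0837 CPM in the wild-type samples. Ifna1 was at 0 in all 20 samples. Ifngr2, a chain of the interferon gamma receptor, was lower with wild type, at 25.3 and 24.3 against 55.7 and 55.2 CPM (-1.17).

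Of the signalling factors, Stat2 stood at 107.8 and 99.6 CPM with wild type against 78.0 and 79.1 CPM with the DEP mutant (0.39), and Irf9 at 70.7 and 72.5 against 12.9 and 12.0 CPM (2.51). All 6 IRF genes listed were higher, among them Irf1 at 574.1 and 572.8 against 72.6 and 76.0 CPM (2.93), Irf7 (2.65), Irf8 (3.94) and Irf5 (3.56). Tmem173, the gene of STING, gave 2.34, and the adaptors Myd88 and Ticam1 gave 1.40 and 1.02. Tlr9 held 88 counts against 3, a ratio of 15.2 (5.04 to 75.3). Of the feedback genes, Socs3 gave 6.69, Socs1 2.43 and the phosphatase Ptpn6 1.02.

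**Figure D5:**
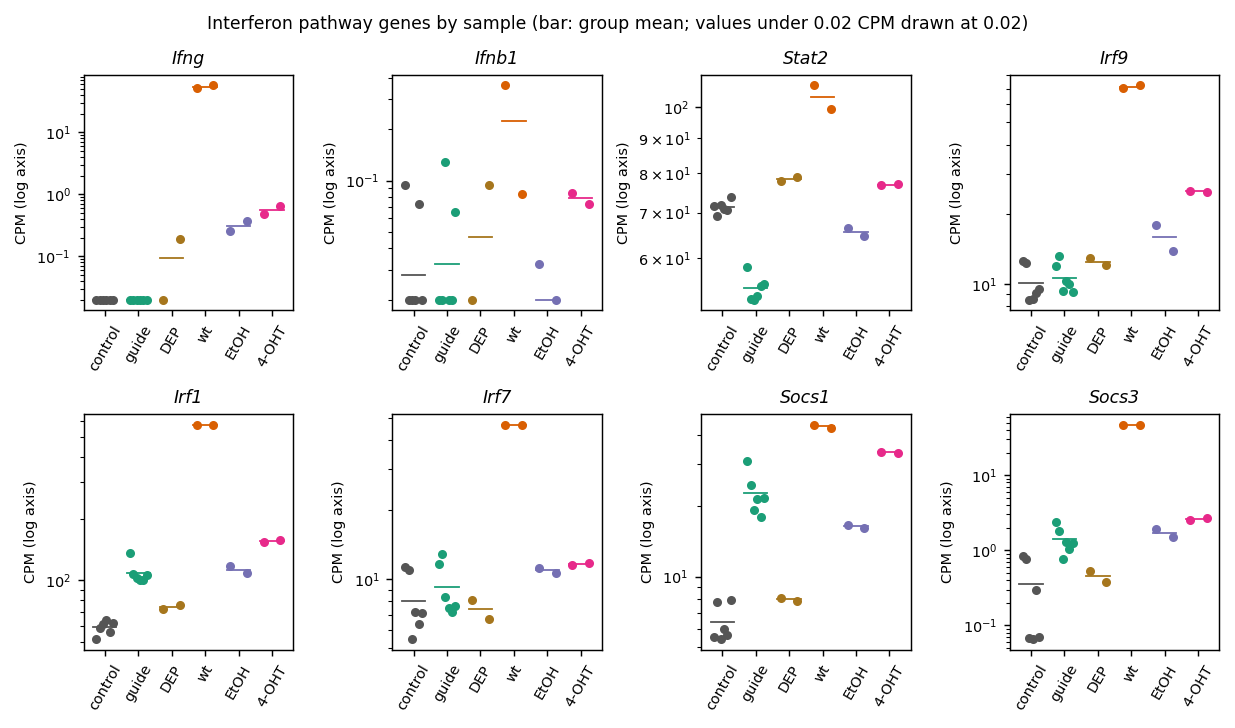
CPM on a log axis (values under 0.02 drawn at 0.02) of 8 pathway genes by group, a point per sample and a bar at the group mean, group names as in the plot of 8 members. Ifng, Irf1, Irf9, Irf7, Socs1 and Socs3 are highest in the 2 wild-type BioNICD samples, Ifnb1 is near 0 in all groups, and Stat2 is lowest with the guides.

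With 4-OHT, 14 of 37 tested pathway genes rose and 6 fell, against 19.0% and 17.2% of all genes. Socs1 rose from 16.6 and 16.1 to 33.8 and 33.6 CPM (1.05), and Tlr9, at 0.194 and 0 against 0.421 and 0.318 CPM, gave 1.91. Irf9 rose by 0.67, Irf1 by 0.47 and Stat2 by 0.23, while Irf7 (0.09) did not pass. Ifngr1 and Ifngr2 fell by 0.92 and 0.82. Ifng stood at 0.259 and 0.372 CPM with ethanol and 0.478 and 0.660 CPM with 4-OHT, and did not pass (0.85, adjusted p = 0.115, edgeR). With the guides, 22 of 34 tested were higher and 8 lower, against 31.8% and 32.7% of all genes. Stat2 was lower (-0.41), at 52.1 to 58.2 against 69.2 to 73.8 CPM, while Irf9 (0.08) and Irf7 (0.20) did not pass. Socs1 stood at 18 to 31.0 against 5.42 to 7.94 CPM (1.80), Socs3 at 0.766 to 2.39 against 0.0657 to 0.846 CPM (2.11), and Ptpn6 at 12.5 to 17.6 against 33.7 to 47.9 CPM (-1.39). All 5 tested receptor genes were higher with the guides, by 0.19 for Ifnar1 to 0.84 for Ifngr1.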

How the data were processed

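RNA was sequenced from 20 samples in 6 groups, with total RNA depleted of ribosomal RNA and a stranded library kit, per the labels' protocols. FastQC, Trimmomatic, STAR, featureCounts and DESeq2 are the tools, and mm9 the build, listed in the submitters' processing notes. The deposited values are raw read counts that the authors made with featureCounts 1.5.0 per gene over exons of mm9, per the file headers, with no strand option in the recorded command. Further versions were not given in the sources used here.

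Groups and replicate numbers came from the titles. Tests used edgeR 4.0.16, by its quasi-likelihood method on the raw counts (R 4.3.3; TMM scaling, filterByExpr, Benjamini-Hochberg adjustment over all genes tested, threshold 0.05). The guide comparison used 12 samples with the set as a term (10662 genes), the NICD comparisons 8 samples with a coefficient per group (12499 genes), and the line comparisons all 20 samples with the set as a term (11988 genes). In the line comparisons all NICD samples were coded as set 1. CPM values use TMM factors over all 20 samples. The SE was derived from the F statistic (absolute log2 fold change over its root). Where a group held 1 to 3 counts, the ratio of pooled levels is given with its 95% exact interval, which covers counting error only. Depth ran from 10704131 to 48238324 counts. The fits were tested on simulated counts.

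Members, gene lists and tests were chosen with earlier results of these data known. Values in every sample are given for the called members with the largest changes, up to 6 in each direction for each of the main comparisons and up to 3 for the others. Pathway genes are named if called with a log2 fold change of at least 1, besides Stat2, Irf9 and Irf7; 1 gene of that list is counted but not reported here. Alternatives were DESeq2 1.42.0, other scalings, no filter, other sample choices, a replicate block and each replicate left out; leaving out chromosomes 5 and 8 and leaving out the samples with fibroblast transcripts were added after the data were seen. Replicate samples differed by a mean chi-square of at least 2.66 per gene with 20 or more counts, where sampling noise gives 1, so no pair was counted as 1 sample. They were not equally far apart. In set 2, guide replicates 3 and 4 gave 2.75 and 5 and 6 gave 3.23, against 39.0 to 53.6 between these pairs. Control replicates 3 to 5 gave 2.99 to 4.43, and 34.0 to 37.1 against control replicate 6. All were still entered as separate samples, without a term for such clusters. Promoters came from RefSeq (GRCm38.p6), and their coordinates were not mixed with those of mm9.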

Additional observations from a re-analysis of the deposited data

Results flagged for a closer look

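In the 6 guide samples, 3 members had a sample far from the rest: Eif2ak2 was low in replicate 1 (47.9 CPM, next sample 57.3), Bst2 high in replicate 1 (85.1 CPM, next 58.8) and Ly6e high in replicate 2 (1410.4 CPM, next 1070.8). All 3 values are from set 1, and replicate 1 holds the fibroblast transcripts. Such a gap was found in 3 of 60 groups of values looked at, and chance gives about 1 in 20.

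The NICD-ER and BioNICD effects differed in 37 members. In Ifi27l2a (difference -1.39) and Trim25 (-0.29) the effects were called in opposite directions.

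The guide effect differed between the sets in 7 members (set 2 minus set 1, edgeR): Rsad2 (-2.06), Parp14 (-2.06), Usp18 (-1.77), Bst2 (-0.64), Ddx58 (0.63), Parp12 (0.76) and Ifit2 (1.00).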

How the results depend on the processing

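Of the members called, the call held under every alternative run for 37 of 38 in the BioNICD comparison, 21 of 26 with 4-OHT, 34 of 37 in the difference of the NICD effects and 12 of 24 with the guides. For the lines it held for 8 of 15 (DEP mutant against control), 26 of 30 (NICD-ER with ethanol against control) and 19 of 27 (against the DEP mutant). The median log2 fold change of the members ranged over the alternatives from 2.27 to 2.49 with BioNICD, 0.31 to 0.41 with 4-OHT and 0.45 to 0.57 with the guides.

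With the guides, set 1 alone gave 15 called members (13 higher, 2 lower) and 2948 genes, and Ddx58 and Parp12 turned to -0.02 and -0.16; without the set term 2 members were lower. With 4-OHT, DESeq2 gave 2 lower members, and all 20 samples in the fit gave 2 lower and 2218 genes called; leaving out each replicate gave 2 to 4 lower. For the difference of the NICD effects, all 20 samples gave 4039 genes. The difference between the sets was the least stable: without the samples high in Rn45s it was called in 3 members (1 higher, 2 lower) and 447 genes, without the samples with fibroblast transcripts 2 were lower, and leaving out each replicate gave 2 to 11 members (1 to 4 higher, 1 to 7 lower) and 851 to 4062 genes. Of the lower members between lines, leaving out each replicate gave 1 to 2 for the DEP mutant against the control and 0 to 1 for NICD-ER with ethanol against the DEP mutant, where edgeR without a filter also gave 0 (DESeq2 and an unadjusted p under 0.05 gave 1 each). For these changes the cause was not tested, apart from the smaller number of samples where samples are left out. The promoter core followed by ACT was held by 25% of members.

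Samples with the same replicate number did not deviate together in all pairs. Correlations were -0.15 to 0.18 in 6 CRISPR pairs, against -0.2 to 0.2 in pairs with different numbers. In 12 NICD pairs they were -0.02 to 0.19, against -0.19 to 0.02 with different numbers, a mirror image where each group holds 2 samples. NICD-ER with ethanol and with 4-OHT gave 0.18 for the same number and -0.18 otherwise. Whether samples were paired was not tested. Not every sample correlated best with its own number. With a replicate block, 23 members were called with the guides, 27 with 4-OHT, 38 with BioNICD and 37 in the difference of the NICD effects. In set 1 with the block, the lines gave 15, 28 and 26, with 0 lower in the last.

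Members near 0 counts in a group, such as Oas1a and Ifi44, have fold changes that the depth does not fix.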
